A study of Mus musculus with 8 samples.

Results

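The genes described here are 63 genes of the Wnt pathway, taken by symbol from 22987 mouse genes at 1 locus. They are the Wnt ligands (19 genes), the proteins that make and release them (2), the receptors (12), the R-spondin axis (9), the secreted antagonists (10), cytoplasmic components (6) and nuclear factors (5). All 63 were listed in every library. The match by symbol used no measured value, but the set was chosen with earlier results of these data known.

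Wnt proteins are secreted lipid-modified signals that bind a Frizzled receptor together with the co-receptor Lrp5 or Lrp6. In the canonical branch this binding stops a cytoplasmic complex of Axin, Apc and kinases from destroying beta-catenin, which then enters the nucleus and acts through Tcf and Lef factors. In the mouse, Wnt signalling favours self-renewal of naive stem cells, and in the post-implantation epiblast it induces the primitive streak, with secreted antagonists limiting it.

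Polyadenylated RNA was sequenced from 8 libraries of mouse pluripotent cells. Epiblast stem cells (mEpiSC), the primed state, were cultured with 10 ng/ml FGF2. Of the 4 mEpiSC libraries, replicate 1 is of the line EpiSC5, replicates 2 and 3 are of EpiSC7, and replicate 4 is of EpiSC9. Embryonic stem cells (mESC), the naive state, were cultured with LIF. Of the 4 mESC libraries, replicates 1 and 2 are of the line ESF122, and replicates 3 and 4 are of ESF175/1. Both kinds of cell grew in a medium with 20% serum replacement on irradiated mouse embryonic fibroblasts and were separated from them before RNA extraction. The cells carried no labelled genetic change, and no agent acting on the Wnt pathway is named in the labels. Medium factor, cell state and cell lines changed together and cannot be told apart. The labels do not say if a line's libraries are of separate cultures, so the spread within a line may be technical. In the sentences below, mEpiSC values stand in the order EpiSC5, EpiSC7, EpiSC7, EpiSC9, and mESC values in the order ESF122, ESF122, ESF175/1, ESF175/1, unless the text says otherwise.

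The unit is FPKM, a count of fragments scaled by transcript length and by library depth, and each library held an estimated 24800000 to 38600000 fragments. Differences are mEpiSC minus mESC on the log2(FPKM + 1) scale, which understates the change of genes of low level. They were tested with limma over the 11556 genes that reached 1 FPKM in 4 or more libraries, and a gene was called at a Benjamini-Hochberg adjusted p under 0.05. The markers went with the labels: 6 of 6 naive markers were lower and 4 of 5 primed markers higher in mEpiSC, Pou3f1 being the exception, and none of the 4 general pluripotency markers was called. Markers named for other cell types also differed between libraries. The 15 fibroblast markers summed to 72.7 to 563 FPKM in mEpiSC and 8.41 to 303 FPKM in mESC, with 5 of 14 tested markers called higher and no marker at 0 in any library. The 9 primitive streak markers summed to 47.6 to 206 FPKM in mEpiSC and 3.81 to 47.7 FPKM in mESC, and the 8 primitive endoderm markers to 9.01 to 84.2 FPKM in mEpiSC and 2.50 to 3.50 FPKM in mESC. The streak marker Msgn1 was listed at 0 in all 4 mESC libraries and in mEpiSC replicate 3. The endoderm markers Afp and Ttr were at 0 in some libraries of both states and reached at most 0.113 and 0.134 FPKM. The highest mESC streak value was that of replicate 2, where T, the streak transcription factor, reached 38.8 FPKM, the other 3 mESC libraries having 1.95 to 2.94 FPKM. In bulk RNA, fewer cells of a type and less RNA per cell cannot be told apart. Whether these markers came from other cells or from the pluripotent cells was not tested. The part of such cell types in the results below was not tested except where a value is given. The replicate 4 libraries of both states stood apart on the second principal component, so counts are also given without them.

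Of the 40 Wnt genes that passed the filter, 18 were called higher in mEpiSC, against 23.1% of all genes tested. Only Notum was called lower among these 40, against 14.2% of all genes tested, and 21 were not called. Values of mEpiSC and mESC did not overlap for 16 genes higher in mEpiSC and 1 lower, against 22.2% and 14.9% of all genes. The median difference was 0.80 over the 40 genes and 0.083 over all genes tested. Counts and medians over the tested genes are descriptions only. Of the 40, 9 had at most 1 mESC library at 1 FPKM and so passed the filter through mEpiSC. These 9 were Dkk1, Dkk3, Fzd1, Nkd1, Rspo3, Sfrp5, Sp5, Wnt11 and Wnt5a, and all were called higher. Notum passed the filter through mESC. Of all called genes, 61.9% were higher as deposited and 49.8% after quantile normalization, which put the median of all genes at −0.019. After that step 16 Wnt genes were higher and 1 lower, and of all 11556 genes 2188 and 2207. Without the replicate 4 libraries of both states 20 were higher and 1 lower, and of all genes 3046 and 2164. With the libraries of each line averaged, so that 3 mEpiSC lines faced 2 mESC lines, 6 were higher and 1 lower. Of all genes 865 were then higher and 557 lower, against 2665 and 1640 in the main fit.

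**Figure D1:**
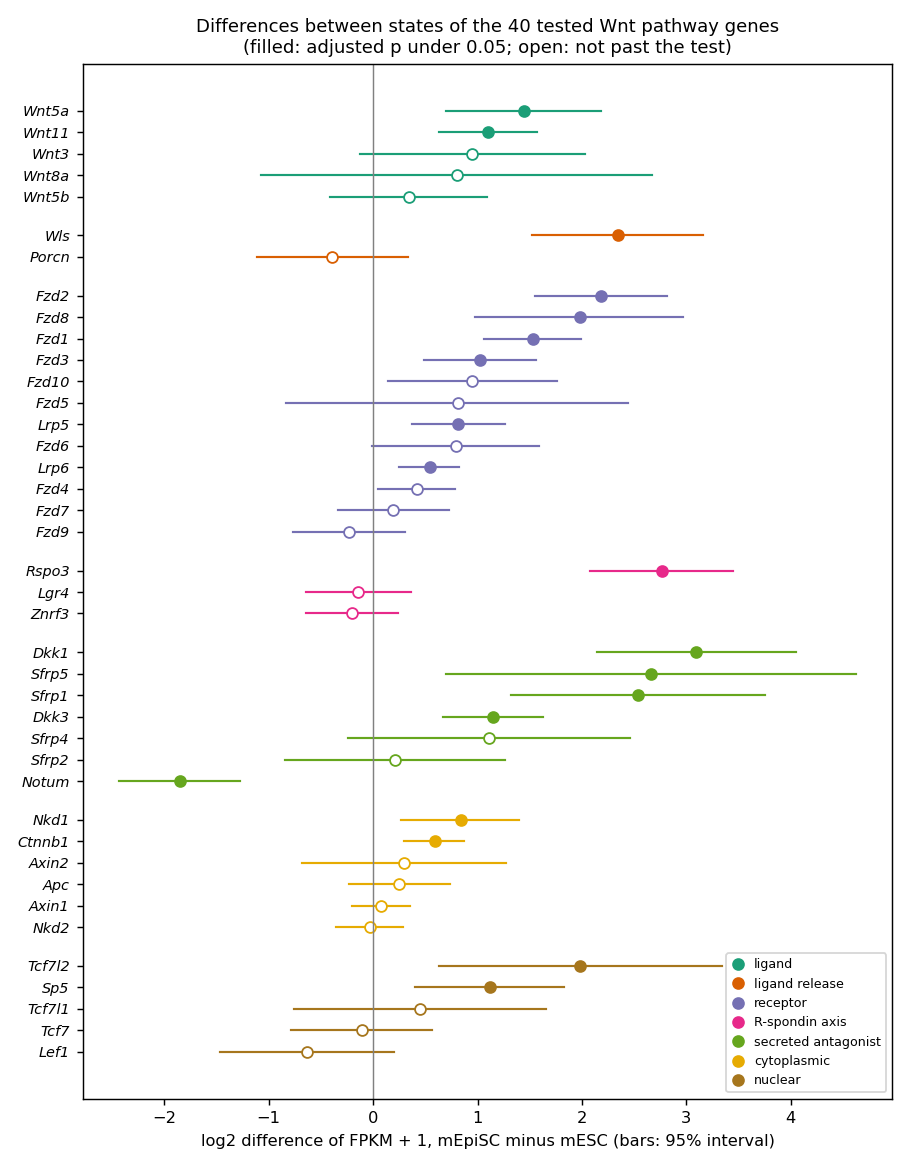
Difference between mEpiSC and mESC for the 40 tested Wnt genes, grouped by role. The x axis is the difference on the log2(FPKM + 1) scale (mEpiSC minus mESC), bars are 95% confidence intervals from limma, and filled points were called; 18 filled points lie right of 0 and 1, Notum, lies left.

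By role, called higher were 6 of 12 tested receptors, 4 of 7 secreted antagonists, 2 of 5 ligands and 1 of 2 release genes. So were 1 of 3 genes of the R-spondin axis, 2 of 6 cytoplasmic components and 2 of 5 nuclear factors. Of all genes tested 23.1% were called higher. The numbers per role are small, and the roles were not compared by a test. Both called ligands, Wnt5a and Wnt11, passed the filter through mEpiSC. So did Rspo3, Fzd1, Dkk1, Dkk3, Sfrp5, Nkd1 and Sp5, and the counts per role are descriptions only. The median difference over tested genes was highest for the antagonists (1.15, 7 of 10 tested). It was lowest for the R-spondin axis (−0.14, 3 of 9 tested), which includes Rspo3 at 2.77.

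Few ligands were expressed. Of 19 ligand genes 5 passed the filter, and 13 stayed under 1 FPKM in all 8 libraries. Wnt8a, an early epiblast and streak ligand (chr18:34701982-34707715, mm9 as all gene positions here), had the highest mean. It had 5.41, 38.7, 7.50 and 22.9 FPKM in mEpiSC, against 8.31, 39.3, 3.34 and 2.50 FPKM in mESC. The highest value of each state lay in a replicate 2 library, and the states overlapped. Its difference was 0.80 (95% interval −1.07 to 2.67, adjusted p = 0.49). Wnt8a made up 29.9% to 67.3% of the summed ligand FPKM in mEpiSC libraries and 39.5% to 78.4% in mESC libraries.

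Wnt3, the ligand required for the mouse primitive streak (chr11:103635489-103679335), was likewise highest in the replicate 2 library of each state. Wnt3 had 3.36, 9.62, 2.33 and 3.23 FPKM in mEpiSC, against 1.94, 4.88, 0.546 and 0.757 FPKM in mESC. Its difference of 0.95 (SE 0.48) was not called (adjusted p = 0.15). In the fit with replicate number as a block, Wnt3 was called (adjusted p = 0.0070), each mEpiSC library lying above the mESC library of its number. No label pairs libraries by number.

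The ligands called higher were Wnt5a and Wnt11, both best known for signalling that does not need beta-catenin and for cell movement. Wnt5a (chr14:29318659-29338701) had 3.06, 2.34, 1.61 and 6.69 FPKM in mEpiSC, against 1.12, 0.358, 0.472 and 0.189 FPKM in mESC. The groups did not overlap, EpiSC9 was highest, and the difference was 1.44 (SE 0.33, adjusted p = 0.0088). With the fibroblast marker level as a covariate the difference was 1.33 (adjusted p = 0.051), and with 1 mean per line it was 1.59 (adjusted p = 0.068). Wnt11 (chr7:105987355-106003257) had 2.21, 2.37, 1.10 and 1.59 FPKM in mEpiSC, against 0.160, 0.759, 0.134 and 0.208 FPKM in mESC. All mEpiSC values lay above all mESC values, and the difference was 1.10 (SE 0.21, adjusted p = 0.0038). Wnt5b, a close relative of Wnt5a, reached 3.24 FPKM in EpiSC9, and 1.23 to 1.39 FPKM in the other mEpiSC libraries, against 0.380 to 2.82 FPKM in mESC, and was not called (adjusted p = 0.46).

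**Figure D2:**
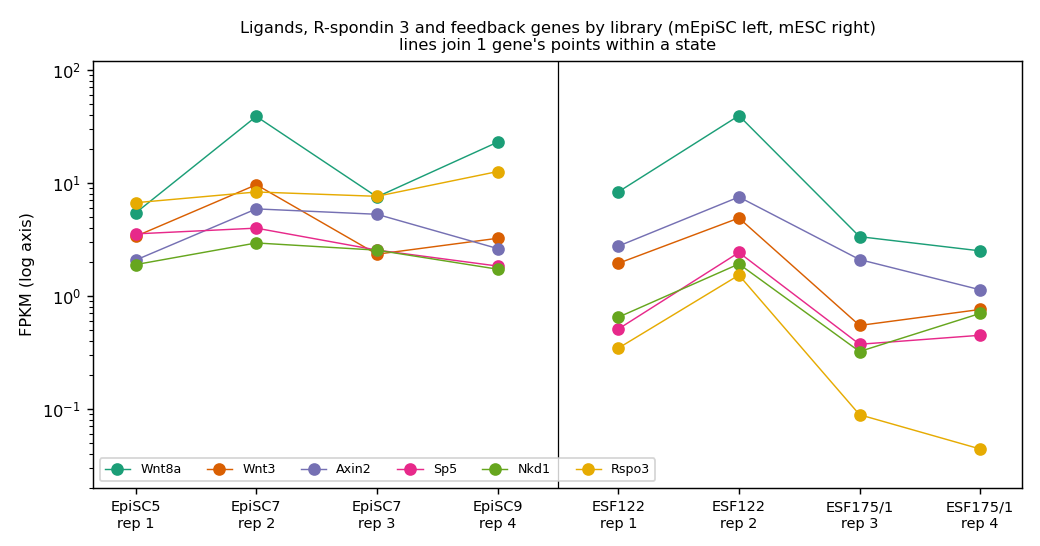
FPKM on a log axis of the ligands Wnt8a and Wnt3, of Rspo3 and of the feedback genes Axin2, Sp5 and Nkd1 in each library, mEpiSC left and mESC right. Lines join the points of 1 gene within a state; in mESC all 6 genes are highest in ESF122 replicate 2, and Rspo3 in mEpiSC (6.67 to 12.6 FPKM) lies above all mESC values (0.0440 to 1.52 FPKM).

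Release of Wnt proteins needs the products of 2 of the genes whose RNA was measured. Wls carries the finished ligand to the cell surface (chr3:159502659-159598139). It had 26.3, 20.5, 25.2 and 44.4 FPKM in mEpiSC, against 6.07, 9.49, 2.72 and 2.81 FPKM in mESC. The groups lay far apart, with a difference of 2.34 (SE 0.36, adjusted p = 0.0015). Porcn, the acyltransferase that adds the lipid (chrX:7770976-7783651), had 4.98, 6.60, 3.88 and 10.2 FPKM in mEpiSC, against 5.48, 11.2, 5.99 and 12.3 FPKM in mESC. It was not called (−0.39, SE 0.32, adjusted p = 0.37).

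The summed Frizzled RNA was higher in every mEpiSC library than in any mESC library, and its composition differed; the sums were not tested. The 10 Frizzled genes summed to 255, 115, 145 and 103 FPKM in mEpiSC, against 77.1, 76.2, 66.2 and 66.3 FPKM in mESC. Fzd7, the Frizzled of highest mean (chr1:59538991-59543799), had 48.4, 34.9, 46.4 and 26.5 FPKM in mEpiSC, against 46.2, 33.9, 31.0 and 24.7 FPKM in mESC. Its difference of 0.19 was not called (95% interval −0.34 to 0.73, adjusted p = 0.55), and that interval leaves out differences as large as those of the Frizzled genes called below. Its share of the Frizzled sum was 26.8 ± 5.83% in mEpiSC and 47.1 ± 9.47% in mESC (SD, n = 4 each), and these shares did not overlap.

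**Figure D3:**
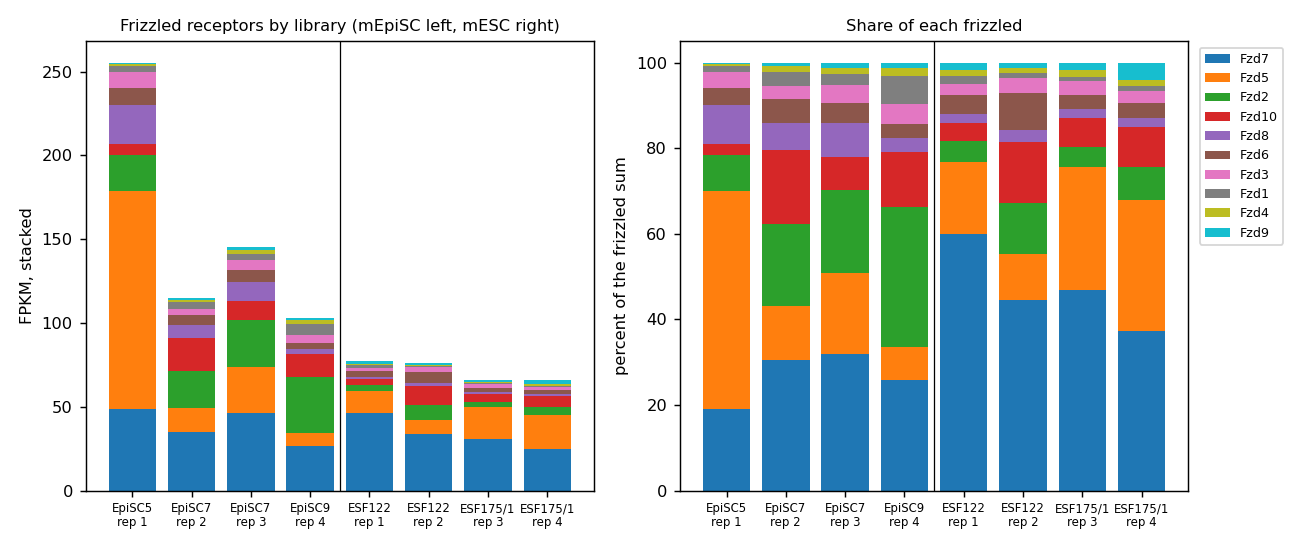
Frizzled receptor RNA by library, mEpiSC left and mESC right. The left panel stacks the FPKM of the 10 genes and the right panel their percent of that sum; Fzd7 is the largest band in all mESC libraries (37.3% to 60.0%), and in EpiSC5 Fzd5 takes 51.1%.

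Fzd2 was the most abundant Frizzled called higher (chr11:102465745-102469372). It had 21.3, 22.1, 28.0 and 33.6 FPKM in mEpiSC, against 3.86, 9.10, 3.06 and 5.11 FPKM in mESC. All mEpiSC libraries exceeded all mESC libraries, by 2.18 (SE 0.28, adjusted p = 0.00064), and its share of the Frizzled sum was 19.9 ± 9.96% in mEpiSC and 7.32 ± 3.38% in mESC (SD, n = 4 each). Fzd1, close to Fzd2 in sequence (chr5:4753839-4758216), had 3.98, 3.86, 3.67 and 6.60 FPKM in mEpiSC, against 1.42, 0.855, 0.671 and 0.661 FPKM in mESC. The groups did not overlap, and the difference was 1.53 (SE 0.20, adjusted p = 0.00081).

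Fzd3 and Fzd8 were called as well, though neither was with 1 mean per line (1.09, adjusted p = 0.076 for Fzd3 and 1.98, adjusted p = 0.12 for Fzd8). Fzd3, a Frizzled of planar polarity and axon guidance (chr14:65811278-65881300), had 9.14, 3.57, 6.07 and 4.82 FPKM in mEpiSC, against 2.10, 2.83, 2.19 and 1.97 FPKM in mESC. The difference was 1.02 (SE 0.24, adjusted p = 0.0095), and with the fibroblast covariate it was 0.89 (adjusted p = 0.060). Fzd8, which binds canonical ligands (chr18:9212854-9216199), had 23.0, 7.30, 11.5 and 3.31 FPKM in mEpiSC, against 1.60, 1.99, 1.39 and 1.39 FPKM in mESC. Both genes were highest in EpiSC5 and separated the states, and Fzd8 differed by 1.98 (SE 0.44, adjusted p = 0.0080). With the fibroblast covariate Fzd8 differed by 1.45 (adjusted p = 0.065). Fzd10 had 6.84, 19.6, 11.2 and 13.4 FPKM in mEpiSC, against 3.30, 10.9, 4.60 and 6.16 FPKM in mESC, and was called with replicate number as a block (adjusted p = 0.0027) but not without it (0.95, SE 0.36, adjusted p = 0.066).

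The other Frizzled genes were not called. Fzd4 had 1.07 to 2.06 FPKM in mEpiSC and 0.801 to 1.06 FPKM in mESC, without overlap (0.42, adjusted p = 0.071). Fzd6 ranged from 3.34 to 10.4 FPKM in mEpiSC and from 2.05 to 6.58 FPKM in mESC (0.79, adjusted p = 0.11). Fzd9 ranged from 0.599 to 1.80 FPKM in mEpiSC and from 0.981 to 2.61 FPKM in mESC (−0.23, adjusted p = 0.48). Fzd5, with a spread among mEpiSC lines described further on, had 7.90 to 130 FPKM in mEpiSC and 8.30 to 20.3 FPKM in mESC (0.81, adjusted p = 0.42).

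Both co-receptors were called higher, by less than the Frizzled genes that were called. Lrp5 (chr19:3584825-3686564) had 20.9, 19.9, 21.5 and 14.0 FPKM in mEpiSC, against 12.1, 11.9, 10.7 and 7.12 FPKM in mESC (0.81, SE 0.20, adjusted p = 0.011). Lrp6 (chr6:134396496-134516931) had 17.3, 16.1, 18.0 and 13.2 FPKM in mEpiSC, against 10.2, 11.7, 10.1 and 11.1 FPKM in mESC (0.54, SE 0.13, adjusted p = 0.0099). The states did not overlap for either gene, and with the fibroblast covariate the difference of Lrp5 was 0.51 (adjusted p = 0.083). With 1 mean per line neither was called (0.77, adjusted p = 0.10 for Lrp5 and 0.51, adjusted p = 0.12 for Lrp6).

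R-spondins bind Lgr4, Lgr5 or Lgr6 and remove the ubiquitin ligases Znrf3 and Rnf43, which otherwise clear Frizzled receptors from the membrane. The R-spondin RNA present differed between the states. Rspo3 (chr10:29172913-29255673) had 6.67, 8.30, 7.59 and 12.6 FPKM in mEpiSC, against 0.344, 1.52, 0.0886 and 0.0440 FPKM in mESC. It separated the states with the lowest adjusted p of the called Wnt genes (2.77, SE 0.30, adjusted p = 0.00032). Of its windows of 50 transcript bases 11.6% also occur in other genes, the predicted gene Gm48159 having the most matches. Rspo1 did not pass the filter and ranged from 0.266 to 0.509 FPKM in mEpiSC and from 0.473 to 1.91 FPKM in mESC. Rspo3 made up 88.3 ± 2.53% of the summed R-spondin FPKM in mEpiSC and 17.6 ± 16.1% in mESC, and Rspo1 made up 3.59 ± 0.351% in mEpiSC and 61.2 ± 11.8% in mESC (SD, n = 4 each).

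The R-spondin receptor Lgr4 was not called, and its values overlapped between the states. Lgr4 (chr2:109757804-109854414) had 35.7, 43.4, 39.5 and 20.1 FPKM in mEpiSC, against 40.4, 39.6, 32.9 and 35.2 FPKM in mESC (−0.14, 95% interval −0.64 to 0.36, adjusted p = 0.65). The lowest value was that of EpiSC9. Znrf3 ranged from 1.70 to 3.14 FPKM in mEpiSC and from 2.20 to 3.77 FPKM in mESC (−0.20, adjusted p = 0.45), and Rnf43 reached at most 0.677 FPKM in mEpiSC and 0.421 FPKM in mESC. Lgr5, a Wnt target and R-spondin receptor (chr10:114887370-115024836), had 6.99, 0.966, 3.57 and 0.672 FPKM in mEpiSC, against 0.0303, 0.157, 0.0843 and 0.0178 FPKM in mESC. Lgr5 failed the filter with 2 libraries at 1 FPKM. In the fit without a filter, over 19479 genes, its difference was 1.63 (SE 0.46, adjusted p = 0.033).

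Secreted antagonists took both directions. Sfrp proteins bind Wnt ligands, Dkk proteins block Lrp5 and Lrp6, and Notum removes the lipid from Wnt proteins. Dkk1 (chr19:30620374-30623986) had 20.6, 6.69, 16.1 and 4.93 FPKM in mEpiSC, against 0.0457, 1.09, 0.113 and 0.306 FPKM in mESC. All mEpiSC values lay above all mESC values, and the difference of 3.09 (SE 0.42, adjusted p = 0.00089) was the largest among the called Wnt genes. Dkk3, a relative that does not act on Lrp6 as Dkk1 does (chr7:119259533-119302571), had 4.79, 3.55, 3.04 and 2.43 FPKM in mEpiSC, against 1.69, 0.795, 0.710 and 0.807 FPKM in mESC (1.15, SE 0.21, adjusted p = 0.0033). In both states Dkk3 was highest in the library with the highest fibroblast marker level, and with that level as a covariate the difference was 0.77 (adjusted p = 0.018). With 1 mean per line Dkk3 was not called (1.16, adjusted p = 0.056).

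Sfrp1 had the highest mean of the antagonists over all 8 libraries (chr8:24521974-24560104). It had 136, 27.1, 82.3 and 24.6 FPKM in mEpiSC, against 7.67, 14.3, 5.33 and 7.59 FPKM in mESC. The groups did not overlap, although mEpiSC libraries varied widely, and the difference was 2.54 (SE 0.54, adjusted p = 0.0064). With 1 mean per line it was not called (2.59, adjusted p = 0.067). Sfrp5 (chr19:42272461-42276742) had 78.1, 2.62, 4.96 and 2.96 FPKM in mEpiSC, against 0.362, 0.465, 0.342 and 0.591 FPKM in mESC. EpiSC5 stood far above the rest, and the call (2.66, SE 0.87, adjusted p = 0.039) was lost in 5 of the 8 fits that left out 1 library (without mEpiSC 3 or any mESC library), with differences of 2.63 to 2.86 and an adjusted p of up to 0.086. Without EpiSC5 itself the difference was smaller, at 1.62, and was called (adjusted p = 0.0013). With the fibroblast covariate it was 1.81 (adjusted p = 0.23), and with 1 mean per line 2.98 (adjusted p = 0.19).

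Sfrp2 and Sfrp4 were not called. Sfrp2 had 11.5, 17.9, 33.6 and 10.1 FPKM in mEpiSC, against 22.9, 23.7, 10.3 and 6.60 FPKM in mESC (0.21, SE 0.46, adjusted p = 0.76). It shares 12.9% of its windows with other genes, Gm26771 having the most matches. Sfrp4 ranged from 0.524 to 11.5 FPKM in mEpiSC and from 0.346 to 2.49 FPKM in mESC (1.11, adjusted p = 0.17). The summed Sfrp RNA had a different leading gene by mean share in each state: Sfrp1 made up 58.7 ± 8.99% in mEpiSC and 33.6 ± 8.89% in mESC, and Sfrp2 made up 22.1 ± 11.5% in mEpiSC and 57.0 ± 14.1% in mESC (SD, n = 4 each).

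Notum was the gene called lower (chr11:120515103-120522151). It had 0.0833, 0.178, 0.0416 and 0.110 FPKM in mEpiSC, against 1.84, 2.13, 5.76 and 3.14 FPKM in mESC. The groups were widely separated (−1.85, SE 0.26, adjusted p = 0.00094), and the values correspond to 3 to 16 estimated fragments per mEpiSC library and 144 to 457 per mESC library. Of its 50-base transcript windows, 30.8% also occur in other genes, the antisense gene Notumos having the most matches. No source used here says that strand was counted, so reads of Notum and Notumos cannot be told apart.

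**Figure D4:**
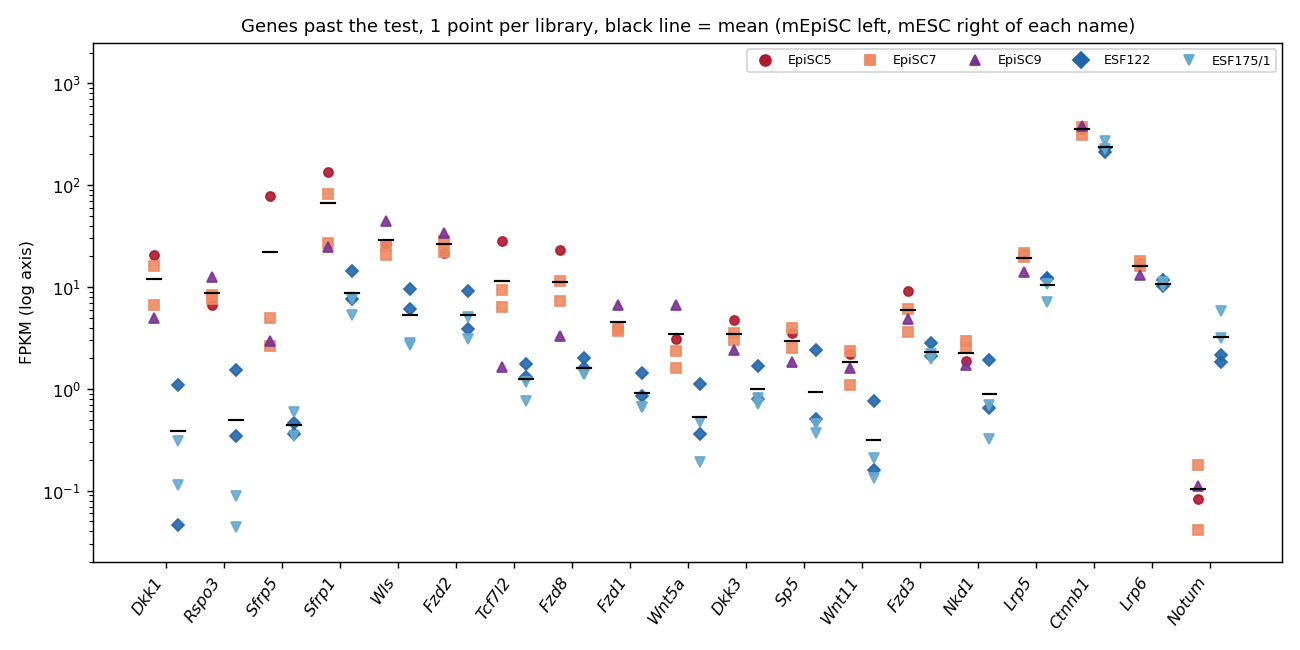
FPKM on a log axis of the 19 called Wnt genes in each library, mEpiSC points left of mESC points for each gene, with a marker for each line and a black bar at each mean. Notum is the gene whose mEpiSC points lie below its mESC points; for Sp5, Nkd1 and Tcf7l2 the points of the states overlap.

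In the cytoplasm, beta-catenin RNA was higher while the scaffold genes of its destruction complex were not called. Ctnnb1, which encodes beta-catenin (chr9:120842518-120869625), had 354, 313, 370 and 377 FPKM in mEpiSC, against 210, 232, 226 and 272 FPKM in mESC. The groups did not overlap (0.59, SE 0.13, adjusted p = 0.0066), and with 1 mean per line Ctnnb1 was not called (0.61, adjusted p = 0.073). Of its windows 15.2% are shared with other genes, Ulk4 having the most matches. Axin1, a scaffold of the complex, ranged from 14.3 to 18.6 FPKM in mEpiSC and from 14.2 to 17.4 FPKM in mESC (0.08, adjusted p = 0.66). Apc, the other scaffold, ranged from 9.66 to 18.6 FPKM in mEpiSC and from 8.43 to 13.7 FPKM in mESC (0.25, adjusted p = 0.38). On the list of other pathway genes below, Gsk3b (0.87, adjusted p = 0.018), Csnk1d (0.54, 0.0093), Csnk1e (0.88, 0.012) and Fam123b (0.64, 0.043) were called higher. Gsk3a (0.01, 0.93) and Csnk1a1 (0.06, 0.74) were not called. With 1 mean per line none was called (adjusted p = 0.14 for Gsk3b, 0.061 for Csnk1d, 0.059 for Csnk1e and 0.26 for Fam123b). These genes were picked after their values were seen.

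Axin2, Nkd1 and Nkd2 act as inhibitors, and the first pair are induced by the pathway in many tissues. Axin2 (chr11:108781663-108812095) had 2.07, 5.88, 5.26 and 2.62 FPKM in mEpiSC, against 2.75, 7.49, 2.09 and 1.13 FPKM in mESC. The states overlapped fully (0.30, 95% interval −0.68 to 1.27, adjusted p = 0.62). Nkd1 (chr8:91045243-91118786) had 1.89, 2.94, 2.54 and 1.72 FPKM in mEpiSC, against 0.646, 1.91, 0.321 and 0.698 FPKM in mESC (0.84, SE 0.25, adjusted p = 0.028). Replicate 2 of mESC reached the mEpiSC range, and the call was lost in 5 of the 8 fits without 1 library (mEpiSC 2 or 3, or mESC 1, 3 or 4; adjusted p up to 0.078). Nkd2 ranged from 0.757 to 1.49 FPKM in mEpiSC and from 0.996 to 1.25 FPKM in mESC (−0.03, adjusted p = 0.87).

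Among the nuclear factors, Tcf7l2 and Sp5 were called higher. Tcf7l2, a factor that activates or represses with and without beta-catenin (chr19:55816300-56008145), had 28.0, 6.40, 9.39 and 1.65 FPKM in mEpiSC, against 1.30, 1.76, 1.17 and 0.758 FPKM in mESC (1.98, SE 0.60, adjusted p = 0.029). EpiSC9 lay within the mESC range, the call was lost in 5 of the 8 fits without 1 library (mEpiSC 2 or 3, or mESC 1, 3 or 4; adjusted p up to 0.072), and the adjusted p was 0.22 with the fibroblast covariate (1.16) and also with 1 mean per line (1.98). Tcf7l1, a repressor and the most abundant of the family (chr6:72576374-72738950), had 56.9, 43.8, 48.9 and 9.25 FPKM in mEpiSC, against 31.8, 29.2, 27.2 and 12.7 FPKM in mESC. It was not called (0.45, SE 0.54, adjusted p = 0.54), and both replicate 4 libraries were the lowest of their state. Tcf7l1 was called higher without both replicate 4 libraries (0.74, adjusted p = 0.0038) and without mEpiSC replicate 4 alone (1.03, adjusted p = 0.024).

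Tcf7 and Lef1 were not called. Tcf7 had 14.5, 24.3, 22.1 and 13.2 FPKM in mEpiSC, against 22.9, 29.1, 19.5 and 10.9 FPKM in mESC (−0.11, adjusted p = 0.80). Lef1 had 4.46, 13.4, 11.0 and 5.95 FPKM in mEpiSC, against 18.3, 13.7, 16.3 and 6.76 FPKM in mESC (−0.63, SE 0.37, adjusted p = 0.21). Of the windows of Lef1, 32.7% are shared with other genes, the predicted gene Gm43352 having the most matches. Lef1 made up 12.9 ± 6.53% of the Tcf and Lef sum in mEpiSC and 22.6 ± 3.09% in mESC, and Tcf7l2 made up 12.5 ± 9.83% in mEpiSC and 2.10 ± 0.365% in mESC (SD, n = 4 each).

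Sp5 is a zinc finger factor that beta-catenin induces directly (chr2:70312980-70315783). It had 3.53, 3.97, 2.54 and 1.83 FPKM in mEpiSC, against 0.507, 2.42, 0.372 and 0.447 FPKM in mESC (1.12, SE 0.32, adjusted p = 0.022). ESF122 replicate 2 lay above EpiSC9, so the states overlapped, and the call was lost in 5 of the 8 fits without 1 library (mEpiSC 1 or 2, or mESC 1, 3 or 4; adjusted p up to 0.067). Promoters were searched for CTTTGAT, the core letters read by Tcf and Lef factors, on both strands from 250 bases before to 50 bases after the start. The core shares its opening CTTTG with the motif of Sox factors. Of 41 Wnt genes with a promoter in the RefSeq table (GRCm38.p6), Sp5, Wnt5b and Wnt11 held it. They are shown because they are all the matches, and capitals mark the core. Sp5 lies at chr2:70474673-70474972 on the plus strand, with the core starting 104 bases before the start. Wnt5b lies at chr6:119449337-119449636 on the minus strand, with the core starting 71 bases before the start. Wnt11 lies at chr7:98834862-98835161 on the plus strand and holds the core on the other strand, ATCAAAG as printed, starting 51 bases before the start. Each is written from 5′ to 3′ in the direction of transcription.
Sp5: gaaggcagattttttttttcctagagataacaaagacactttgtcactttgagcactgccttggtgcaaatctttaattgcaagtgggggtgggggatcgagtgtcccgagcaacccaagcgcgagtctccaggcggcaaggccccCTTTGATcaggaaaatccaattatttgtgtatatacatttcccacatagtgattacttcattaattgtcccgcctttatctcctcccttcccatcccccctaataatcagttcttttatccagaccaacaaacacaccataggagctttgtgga
Wnt5b: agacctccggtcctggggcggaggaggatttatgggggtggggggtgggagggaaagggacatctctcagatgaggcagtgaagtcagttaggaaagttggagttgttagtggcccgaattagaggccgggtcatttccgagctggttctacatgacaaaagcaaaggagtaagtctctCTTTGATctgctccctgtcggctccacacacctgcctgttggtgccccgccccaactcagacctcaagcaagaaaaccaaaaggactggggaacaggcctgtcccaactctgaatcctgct
Wnt11: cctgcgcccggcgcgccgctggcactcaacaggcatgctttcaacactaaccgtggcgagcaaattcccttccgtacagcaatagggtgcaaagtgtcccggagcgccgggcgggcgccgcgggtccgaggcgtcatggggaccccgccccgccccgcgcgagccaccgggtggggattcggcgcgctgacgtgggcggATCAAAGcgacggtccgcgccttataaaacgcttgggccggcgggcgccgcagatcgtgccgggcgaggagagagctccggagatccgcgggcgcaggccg
Of all 32851 promoters in that table, 3.73% hold the core, a share per promoter and not per gene. The 41 Wnt genes had 51 promoters. Among the called-higher genes 9 had a promoter in the table, and Sp5 and Wnt11 held the core. A match describes these letters and is no evidence of binding.

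Genes known as feedback targets of canonical Wnt signalling took both directions. Of 10 such genes (Axin2, Lef1, Tcf7, Sp5, Nkd1, Notum, Znrf3, Rnf43, Lgr5 and Dkk1) 8 were tested. Among these, Sp5, Nkd1 and Dkk1 passed the filter through mEpiSC and Notum through mESC, so the counts are descriptions only. Sp5, Nkd1 and Dkk1 (3 of 8) were higher and Notum (1 of 8) was lower, against 23.1% higher and 14.2% lower of all genes tested, with a median difference of 0.09 beside 0.083 over all genes tested. Neither Sp5 nor Nkd1 was called with the fibroblast covariate (adjusted p = 0.11 for Sp5 and 0.082 for Nkd1) or with 1 mean per line (0.085 for Sp5 and 0.11 for Nkd1). The levels of the 10 genes varied between libraries of 1 state: 7 of the 10 were highest within mESC in ESF122 replicate 2, and 6 of the 10 were highest within mEpiSC in EpiSC7 replicate 2. Over all 40 tested Wnt genes, ESF122 replicate 2 was the highest mESC library for 23 and EpiSC9 the lowest mEpiSC library for 20. How often each library was highest or lowest over all genes was not counted. Whether these numbers are particular to Wnt genes was therefore not tested. ESF122 replicate 2 also had the high T value given above, and a link was not tested.

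Lines of 1 state were compared in a fit with a mean for each line. Among the mEpiSC lines 5 of the 40 Wnt genes were called by limma's F test, against 2.60% of all genes tested, and 13 had an unadjusted p under 0.05. The 5 were Fzd5, Fzd8, Sfrp5, Tcf7l1 and Tcf7l2. Without mESC replicate 1 or 2 the number was 2 (Sfrp5 and Tcf7l2), without mEpiSC replicate 2 it was 3, and without mESC replicate 3 or 4 it was 9. The share of all genes called in these fits without 1 library, or with an unadjusted p under 0.05, was not counted. EpiSC5 and EpiSC9 had 1 library each and are assumed to vary like the lines with 2. EpiSC5 also had the highest primitive endoderm, streak and fibroblast marker sums of the 8 libraries, at 84.2, 206 and 563 FPKM. Whether such cells were present, and their part in the line differences, was not tested.

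Fzd5, a Frizzled also used by the mouse yolk sac (chr1:64777132-64784324), had 130 FPKM in EpiSC5 and 7.90 FPKM in EpiSC9, against 14.6 and 27.5 FPKM in EpiSC7. EpiSC5 was higher than EpiSC7 by 2.64, and EpiSC9 differed from EpiSC7 by −1.24 (F test adjusted p = 0.023). Of the windows of Fzd5, 16.4% are shared with other genes, Gm38058 having the most matches. Fzd8 had 23.0 FPKM in EpiSC5 and 3.31 FPKM in EpiSC9, against 7.30 and 11.5 FPKM in EpiSC7, with differences of 1.23 and −1.24 (adjusted p = 0.033).

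Tcf7l2 followed the same order of lines as Fzd5 and Fzd8. It had 28.0 FPKM in EpiSC5 and 1.65 FPKM in EpiSC9, against 6.40 and 9.39 FPKM in EpiSC7, with differences of 1.72 and −1.73 (adjusted p = 0.016). Sfrp5 was high in EpiSC5 alone, by 4.09 over EpiSC7, while EpiSC9 differed by −0.23 (adjusted p = 0.0073). Tcf7l1 was low in EpiSC9, by −2.21 against EpiSC7, while EpiSC5 differed by 0.29 (adjusted p = 0.049). EpiSC9 is the replicate 4 library of mEpiSC, and the replicate 4 library of mESC was low for Tcf7l1 too, at 12.7 FPKM against 27.2 FPKM in replicate 3 of the same line. For all differences of EpiSC9, the line and the replicate number cannot be told apart.

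**Figure D5:**
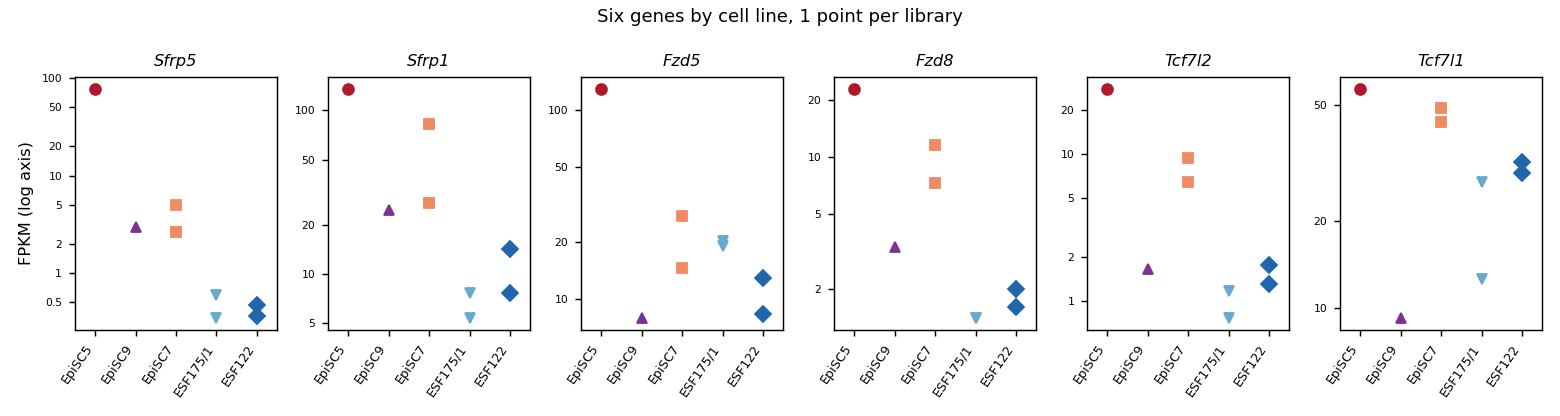
FPKM on a log axis, 1 point per library, of Sfrp5, Sfrp1, Fzd5, Fzd8, Tcf7l2 and Tcf7l1 in the 5 lines. EpiSC5 is the highest line in every panel, EpiSC9 is the lowest mEpiSC point for all but Sfrp5, and Tcf7l1 in EpiSC9 (9.25 FPKM) lies below all mESC points.

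Between the mESC lines, 0 of 40 Wnt genes were called by limma, against 0.762% of all genes tested. An unadjusted p under 0.05 was found for 10 of the 40, and the share of all genes with such a p was not counted. The lowest adjusted p was that of Wls, at 2.72 and 2.81 FPKM in ESF175/1, against 6.07 and 9.49 FPKM in ESF122 (−1.19, SE 0.22, adjusted p = 0.081). Wnt8a had 3.34 and 2.50 FPKM in ESF175/1, against 8.31 and 39.3 FPKM in ESF122 (−2.31, SE 0.98, adjusted p = 0.36). Without mESC replicate 3, ESF175/1 had 1 library. The differences were then −1.12 for Lef1, −0.68 for Lrp5, −1.17 for Tcf7, −1.20 for Tcf7l1 and −1.18 for Wls. These genes were picked after that fit was seen.

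The calls between the states were also fitted with the fibroblast marker level, whose mean on the log2 scale was lower in EpiSC9 (2.33) than in ESF122 replicate 1 (3.49). With the marker level as a covariate 10 of the 18 genes called higher were still called, Fzd10 was called in addition (adjusted p = 0.036), and Notum was still called lower (adjusted p = 0.0087). Of all genes tested 2277 were higher and 1140 lower with the covariate, against 2665 and 1640 in the main fit.

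Of the 23 Wnt genes that did not pass the filter, 20 stayed under 1 FPKM in all 8 libraries. Values of mEpiSC lay above those of mESC without overlap for Lgr5, Rspo4, Wif1, Wnt1, Wnt10b, Wnt4 and Wnt7a, and below for Lgr6. The share without overlap over all genes that did not pass was not counted. The genes that lay above rest on few mESC fragments, an estimated 7 (Wnt1) to 124 (Wnt4) over all mESC libraries. Lgr6 rests on an estimated 62 over all mEpiSC libraries. Wnt4, a ligand of gonad and kidney development, ranged from 0.319 to 0.934 FPKM in mEpiSC and from 0.0483 to 0.311 FPKM in mESC. Wnt3a, a streak and paraxial mesoderm ligand, overlapped, at 0.0721 to 0.357 FPKM in mEpiSC and 0.0625 to 0.246 FPKM in mESC. Dkk4 reached at most 0.0503 FPKM in any library.

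Other genes of the pathway were taken from a list of 55 symbols, of which 53 were in the table and 47 passed the filter. Of the 47, 21 were higher and 2 lower in mEpiSC, with a median difference of 0.54, against 23.1% higher and 14.2% lower of all genes tested. With the libraries of each line averaged, 6 were higher, without mESC replicate 3, 13 were higher, and with replicate number as a block 25 were higher and 3 lower. Of all 11556 genes tested 865, 1904 and 3150 were higher in these fits, in that order, against 2665 in the main fit. The largest was Cer1, a secreted antagonist of Nodal, BMP and Wnt proteins, with 839, 87.4, 122 and 33.8 FPKM in mEpiSC, against 0.598, 6.29, 0.632 and 0.0621 FPKM in mESC (5.98, SE 0.93, adjusted p = 0.0016). Cer1 was by far highest in EpiSC5.

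The next were Frzb, a soluble Frizzled-related antagonist, Gpc4, a glypican that binds Wnt proteins, and Prickle1, of the planar polarity branch. Frzb had 9.82 ± 9.64 FPKM in mEpiSC and 0.194 ± 0.149 FPKM in mESC (2.80, SE 0.51, adjusted p = 0.0031; SD, n = 4 each). Gpc4 had 56.7 ± 50.8 FPKM in mEpiSC and 8.27 ± 1.33 FPKM in mESC (2.29, SE 0.48, adjusted p = 0.0061), and Prickle1 had 28.1 ± 8.40 FPKM in mEpiSC and 6.15 ± 3.87 FPKM in mESC (2.11, SE 0.34, adjusted p = 0.0017). Frzb and Gpc4 were highest in EpiSC5 (23.9 and 132 FPKM) and differed among mEpiSC lines by limma's F test (adjusted p = 0.021 and 0.018). With 1 mean per line Frzb (adjusted p = 0.073) and Gpc4 (0.098) were not called, and Prickle1 was (0.021). The pair called lower were co-repressors, but others of their families on the list were not lower. Ctbp1 was called higher (0.80, SE 0.19, adjusted p = 0.011), and Tle1, Tle3 and Aes were not called. Tle4, which represses with Tcf factors, had 18.6 ± 4.10 FPKM in mEpiSC and 32.8 ± 5.21 FPKM in mESC (−0.80, SE 0.18, adjusted p = 0.0082), and Ctbp2 had 44.1 ± 4.41 FPKM in mEpiSC and 71.5 ± 3.00 FPKM in mESC (−0.69, SE 0.11, adjusted p = 0.0018). With 1 mean per line Tle4 was not called (adjusted p = 0.057) and Ctbp2 was (adjusted p = 0.039).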

How the data were processed

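Gene-level FPKM with the bounds of a 95% interval were deposited for each library. The submitters' processing notes name TopHat2 2.0.6, Cufflinks 2.0.2 and the build mm9. For annotation, options and strand, details were not given in the sources used. The authors deposited 1 table per library and pooled no replicates. No count test was run, since the unit is FPKM. Symbols at several loci (248 symbols, 712 of 23699 entries) were left out. Fragment numbers were estimated from each FPKM and its interval. Of genes implying under 100 fragments, 80.2% to 81.0% came out whole (tolerance 0.05), so depth is approximate. Deposited starts were increased by 1 to count from 1.

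Samples were grouped by their labels. limma 3.58.1 (statmod 1.5.0, R 4.3.3; trend and robust options) was run on log2(FPKM + 1) over all 11556 genes passing the filter, 2-sided, with Benjamini-Hochberg adjustment. Lines were compared in a second limma fit with a mean per line. The code was tested on simulated data. The Wnt genes and all lists were chosen with earlier results of these data known. Values per library were given for genes called and for the gene of highest mean in each role; Porcn, Axin2, Lef1, Tcf7, Wnt3, Fzd10, Lgr5, Sfrp2 and the members given by range were described after their values were seen, as were the genes shown by line.

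Same-numbered libraries deviated together from their group means across genes (correlations of 0.22, 0.15, 0.18 and 0.51, in order of number). Each was over 0.1, the bound of the rule used for also fitting the number as a block. Correlations between libraries of different number were not computed, and no label pairs the libraries. Whether the numbers pair them was therefore not tested. The values printed come from the fit without the block unless the block is named. The first principal component (63.2% of variance) parted the states and the second (16.9%) set both replicate 4 libraries apart. Other settings tried were pseudocounts of 0.1 and 5, quantile normalization, median ratio scaling, dropping the filter, requiring a mean of 5 FPKM or more, the replicate block, the line as a random block, 1 mean per line, a fibroblast marker covariate, and leaving out each library or both replicate 4 libraries. Shared 50-base windows were counted in GENCODE vM21 transcripts, used for names only. Promoters came from RefSeq (GRCm38.p6), and no position was converted between builds.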

Additional observations from a re-analysis of the deposited data

Results flagged for a closer look

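In 8 of 80 groups of 4 libraries the highest or lowest library stood apart from the other 3 on the log2(FPKM + 1) scale by Dixon's criterion at the 95% level; chance gives about 1 in 20. In mEpiSC, EpiSC5 had 78.1 FPKM of Sfrp5, against 2.62 to 4.96 FPKM in the other libraries. EpiSC9 stood apart in 3 genes, with 9.25 FPKM of Tcf7l1 (43.8 to 56.9 FPKM elsewhere in mEpiSC), 6.60 FPKM of Fzd1 (3.67 to 3.98) and 3.24 FPKM of Wnt5b (1.23 to 1.39). In mESC, ESF122 replicate 2 had 2.42 FPKM of Sp5 (0.372 to 0.507 FPKM in the other mESC libraries) and 0.759 FPKM of Wnt11 (0.134 to 0.208). ESF122 replicate 1 had 1.69 FPKM of Dkk3 (0.710 to 0.807), and ESF175/1 replicate 4 had 12.7 FPKM of Tcf7l1 (27.2 to 31.8). The causes were not tested.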

How the results depend on the processing

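Of 743 values of single genes under other settings, 666 kept direction and side of the threshold, 49 lost a call, 13 gained one and 15 changed sign. Calls of Dkk1, Fzd1, Fzd2, Notum, Rspo3, Wls and Wnt11 were kept under every setting that tested them. The 18 higher Wnt genes became 10 with a mean of at least 5 FPKM (23 tested), 6 with 1 mean per line, 11 with the fibroblast covariate and 14 to 21 without 1 library; the 1 lower gene became 0 with a mean of at least 5 FPKM, where Notum was not tested. With the replicate block 20 were higher and 1 lower, Fzd10 and Wnt3 being added and no Wnt call lost; in the other pathway list it gave 25 higher (adding Bcl9, Bcl9l, Dvl3, Mesdc2 and Ryk, losing Ror2) and 3 lower (adding Tdgf1). The 21 higher genes of the other pathway list became 11 with the line as a random block (correlation 0.47), 6 with 1 mean per line, 12 with the fibroblast covariate and 13 to 23 without 1 library; the 2 lower ones became 1 with 1 mean per line. Over all genes tested, the number higher was 2665 in the main fit, 1597 of 8170 with a mean of at least 5 FPKM and 865 with 1 mean per line. It was 2277 with the fibroblast covariate, 3150 with the replicate block, 1796 with the line as a random block and 1904 to 2820 without 1 library. Without 1 library, calls were 0 to 5 between mESC lines and 2 to 9 among mEpiSC lines. How many of all genes were called in these fits between lines was not counted. Sign changes touched uncalled genes: Axin1 was −0.028 under median ratio scaling. With the fibroblast covariate Fzd7 was −0.24, Fzd9 0.078, Nkd2 0.015, Porcn 0.12, Sfrp2 −0.23 and Tcf7l1 −0.45. Lgr4 was 0.069 without both replicate 4 libraries, and Nkd2 was 0.018 with 1 mean per line. Without 1 library Lgr4 ranged from −0.27 to 0.091, Nkd2 from −0.12 to 0.046, Sfrp2 from −0.12 to 0.45 and Tcf7 from −0.37 to 0.072. The causes were not tested. The lines, 3 of mEpiSC and 2 of mESC, limit the independent samples. Some of the 20 genes under 1 FPKM, such as Dkk4, rest on few fragments.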

Other observations

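The streak markers Mesp1, Tbx6 and Msgn1, 3 of the 9 listed, were highest in EpiSC9, the mEpiSC library with the highest Wnt5a, Rspo3, Fzd2 and Wls values. Mesp1, a factor of early mesoderm, had 7.69 FPKM in EpiSC9, and at most 0.125 FPKM in the other mEpiSC libraries and 0.128 FPKM in mESC. Tbx6, of paraxial mesoderm, had 3.32 FPKM in EpiSC9, and at most 0.526 FPKM in the other mEpiSC libraries and 0.284 FPKM in mESC. EpiSC5, the library with the highest Sfrp5, Sfrp1, Fzd5, Fzd8 and Tcf7l2 values, was highest for 5 of the 9 streak markers (Eomes, Mixl1, Gsc, Lhx1 and Evx1) and for 6 of the 8 endoderm markers, Sox7 being highest in EpiSC7 replicate 3 and Afp in EpiSC9. T was highest in EpiSC7 replicate 2. Lhx1 had 93.8 FPKM in EpiSC5, and 2.51 to 10.6 FPKM in the other mEpiSC libraries and 0.0214 to 1.51 FPKM in mESC. Gata6 had 26.4 FPKM in EpiSC5, and 1.71 to 4.41 FPKM in the other mEpiSC libraries and 0.171 to 0.698 FPKM in mESC. These values were chosen after they were seen, each rests on 1 library, and whether they bear on the Wnt genes was not tested.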
